A study of Caenorhabditis elegans with 4 samples.

Results

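The MRG-1 peaks of chromosome IV are all rows placed on that chromosome in the peak lists of the 2 MRG-1 ChIP-seq libraries, a choice that used position alone and no measured value. They numbered 548 of 3158 nuclear peaks in replicate 1 (17.4%) and 465 of 2875 in replicate 2 (16.2%). Another list covers the whole series and held 2461 of its 14479 nuclear peaks on IV. It is treated as a pooled list without a replicate and serves here only to show finer structure.

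The libraries came from early embryos of *Caenorhabditis elegans* strain N2, genotype wild type, from a mixed population of males and hermaphrodites at 20 °C. MRG-1 was precipitated with antibody SDQ3927 in 2 ChIP libraries, from chromatin crosslinked in 1.85% formaldehyde for 30 min and sonicated 14 times. The 2 input DNA libraries were from chromatin crosslinked in the same way and sonicated 9 times, and their values were not analysed here. The labels do not say whether the replicates came from separate cultures, and their spread may be only technical. Coordinates are WormBase WS220, 1-based, errors are the SD of the 2 replicate lists, and read depth is unknown.

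MRG-1 belongs to the MRG15 family of chromodomain proteins, whose mammalian member binds histone H3 methylated at lysine 36, a mark of transcribed gene bodies. In worms the protein is known for its maternal supply and its part in germ cell development. Worm chromosomes have no single centromere. Their central parts are rich in conserved, broadly expressed genes, while the arms recombine more often and hold more repeats. Chromosome IV is also known as the main carrier of 21U-RNA loci, the piRNAs of the worm, which lie in broad clusters. RefSeq's gene table for the assembly WBcel235 places 14714 of 15363 nuclear piRNA entries on IV (95.8%), against 3281 of 19971 protein-coding entries (16.4%). That assembly is not the one of the peak lists, so positions of genes and piRNA loci were not set against the peaks.

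Peaks covered 9.88% of IV in replicate 1 and 9.31% in replicate 2, which was 1.73 Mb and 1.63 Mb of a 17.5 Mb span. On the other autosomes together the coverage was 12.3% in replicate 1 and 11.7% in replicate 2. IV was thus the fourth of 6 chromosomes in coverage and in peaks per Mb, by each of the 3 lists. It had 29.0 ± 3.35 peaks per Mb against 35.5 ± 3.20 on the other autosomes (SD, n = 2). The median peak width on IV was 2341 bp in replicate 1 and 2693 bp in replicate 2, against 2453 bp and 2653 bp on the other autosomes, so the order of IV and the others changed with the replicate. IV was lower in coverage within each replicate, by a mean difference of -2.38 percentage points ± 0.0300 (SD, n = 2), with an exact two-sided permutation p of 0.5. That is the smallest p that 2 replicates allow, so this test cannot pass the 0.05 level.

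Along IV, coverage in 100 kb windows was uneven and the replicates followed the same pattern. Of 175 windows, 17 were at least 20% covered in both replicates. This was 9.71%, against 15.2% of the 100 kb windows of the other autosomes and 11.5% of those of all chromosomes. The most covered window, from 12 to 12.1 Mb, was 29.4% covered in replicate 1 and 34.99% in replicate 2. Next came the window from 7.5 to 7.6 Mb, at 30.5% and 32.0%, and the one from 11.1 to 11.2 Mb, at 25.7% and 35.7%. The other 7 of the 10 most covered windows began at 7.7, 4.7, 11.3, 11.5, 7.9, 10.1 and 11.6 Mb, with replicate means between 26.1% and 30.6%. All 10 lay in the middle 50% of the chromosome, and 4 of them lay between 11 and 12 Mb. That Mb was the most covered of IV, at 16.6% in replicate 1 and 19.0% in replicate 2. In replicate 1 alone the most covered window lay in the left arm, from 2.6 to 2.7 Mb. It was 33.1% covered there and 16.6% covered in replicate 2. Of the windows at least 20% covered, 7 of 25 in replicate 1 and 2 of 19 in replicate 2 lay in the left arm. Between replicates, the 175 window values gave a rank correlation (Spearman) of 0.875 and a linear one (Pearson) of 0.858. Windows share a chromosome and a library, so this is a description of the lists.

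**Figure D1:**
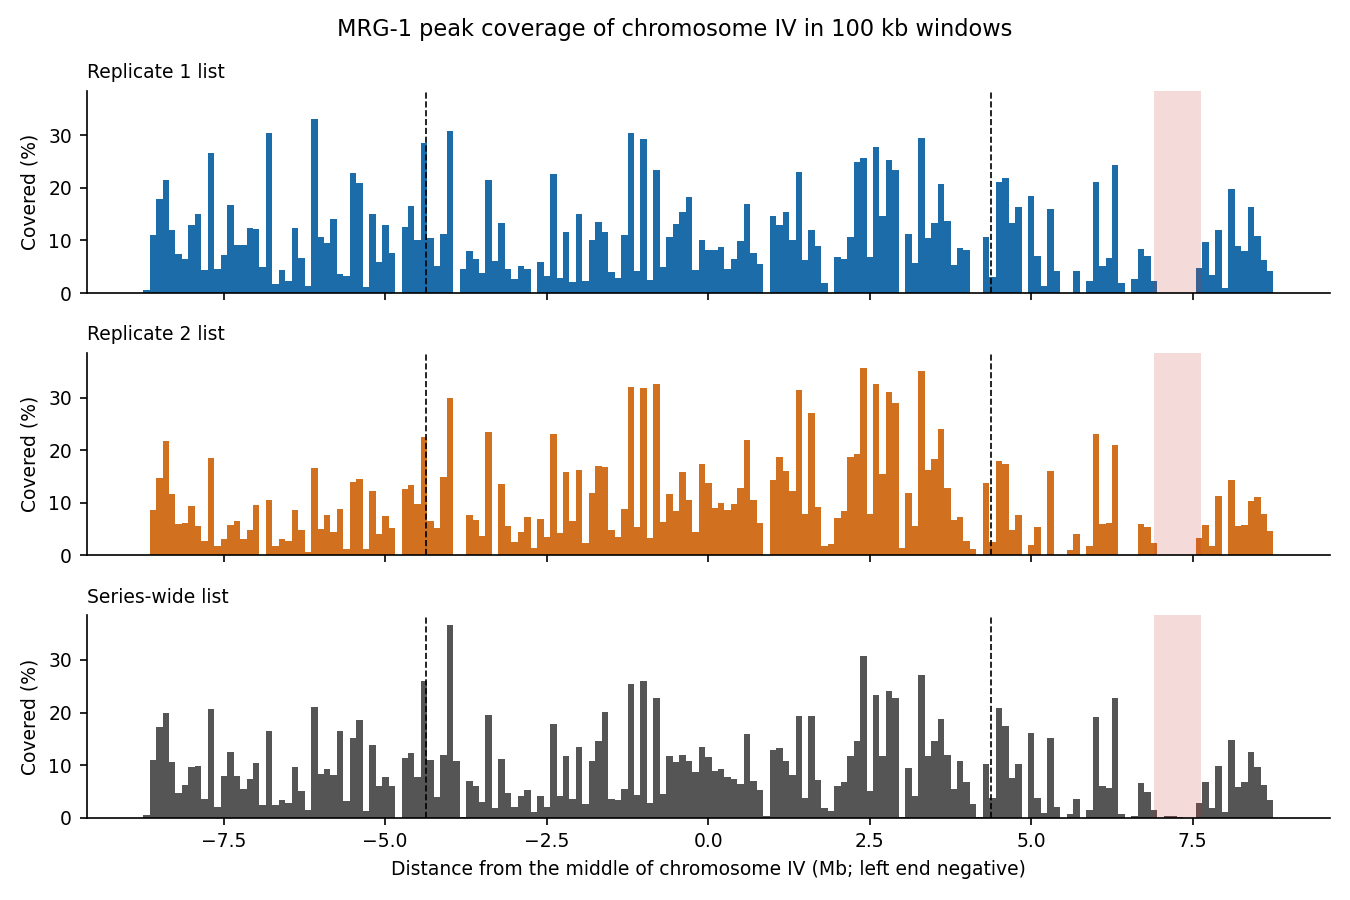
Share of each 100 kb window of chromosome IV inside MRG-1 peaks (percent), by distance from the middle of the chromosome (Mb), in the replicate 1, replicate 2 and series-wide lists. Dashed lines bound the middle 50% of the span and the shaded band is the 733 kb stretch without replicate peaks, and coverage reaches 35.7% in replicate 2 in the centre and 33.1% in replicate 1 in the left arm.

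Windows without any peak lay mainly in the right part. No peak of either replicate touched 14 of the 175 windows (8.00%), against 9.51% of windows on the other autosomes and 11.6% over all chromosomes. Among the other autosomes the share ran from 1.45% on III to 21.9% on V. Of the 14, 10 fell in the right arm, 3 in the centre and 1 in the left arm. Of the 10 in the right arm, 6 lay in a single peak-free stretch of 733 kb. The 3 windows in the centre began at 4.8, 9.6 and 12.9 Mb, and the 1 in the left arm at 3.9 Mb. Series-wide peaks touched 6 of the 14 empty windows and left 8 without a peak in any list.

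The centre of IV, from 4373458 to 13120372, held more peak bases than the arms. It was covered at 10.6% in replicate 1 and 12.2% in replicate 2, against 9.15% and 6.36% for both arms together. Replicate 1 gave a centre-to-arm ratio of 1.16, replicate 2 gave 1.93 and the series-wide peaks gave 1.38. The ratio exceeded 1 in each list, but the replicates lay far apart, at 1.54 ± 0.542 (SD, n = 2). The difference in coverage was 3.67 ± 3.13 percentage points, with the same smallest exact permutation p of 0.5. Counted in peaks per Mb the centre stood level with the arms in replicate 1, at 30.9 against 31.8, and above them in replicate 2, at 32.1 against 21.0. Centre peaks were wider, with medians of 2962 bp in replicate 1 and 3133 bp in replicate 2, against 1836 bp and 2264 bp in the arms.

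The arms themselves were unequal. The left arm was covered at 11.2% in replicate 1 and 7.46% in replicate 2, and the right arm at 7.10% and 5.26%. The left arm was higher within each replicate, by a left-to-right ratio of 1.58 in replicate 1 and 1.42 in replicate 2. Series-wide peaks gave 1.57. The right arm, of 4.37 Mb, includes the 733 kb stretch without replicate peaks. The left-minus-right difference was 3.15 ± 1.35 percentage points (SD, n = 2; exact permutation p of 0.5). In number the contrast was larger, with 186 left-arm peaks against 92 right-arm peaks in replicate 1 and 116 against 68 in replicate 2. Right-arm peaks were wider in both lists. Their median was 2175 bp in replicate 1 and 2334 bp in replicate 2, against 1696 bp and 2257 bp in the left arm. Domains of 5000 bp or more made up 21 of 186 left-arm peaks against 19 of 92 right-arm peaks in replicate 1. In replicate 2 the numbers were 9 of 116 and 15 of 68.

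**Figure D2:**
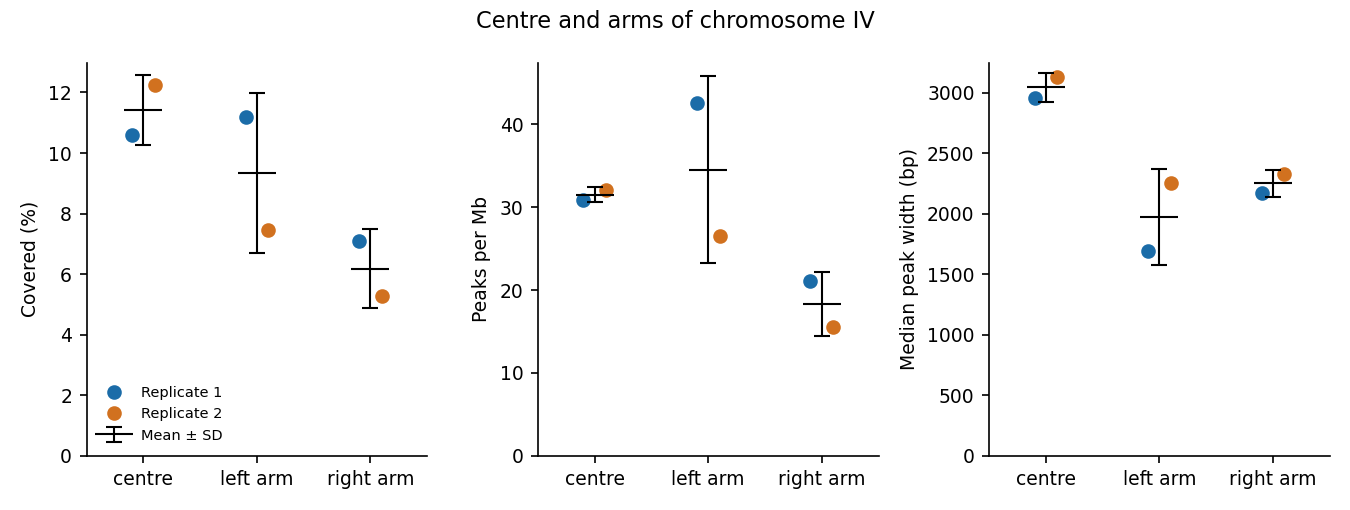
Coverage (percent), peaks per Mb and median peak width (bp) in the centre, left arm and right arm of chromosome IV, with a point per replicate list and the mean ± SD of the 2 lists. The right arm has the lowest coverage in both replicates, and the left arm is where the replicates differ most, with 42.5 peaks per Mb in replicate 1 and 26.5 in replicate 2.

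The replicates differed by zone in a regular way. In the centre, replicate 2 had the higher coverage in 66 windows and replicate 1 in 18 of 87. In the arms replicate 1 was higher in 64 windows and replicate 2 in 13 of 88. The ratio of replicate 2 to replicate 1 coverage was 1.15 in the centre of IV and 0.695 in its arms. On the other autosomes the same ratios were 1.14 and 0.700, so the pattern was not confined to IV. It was also seen in peaks that both lists share: replicate 2 was the wider member in 151 of 216 shared pairs in the centre but in 19 of 90 in the left arm and 15 of 55 in the right arm. The largest gap between replicates in a window was at 1.9 to 2.0 Mb in the left arm, with 30.4% in replicate 1 and 10.6% in replicate 2. In the window from 10.3 to 10.4 Mb, in the centre, replicate 1 had 11.9% and replicate 2 had 27.1%. The cause of the difference was not tested.

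The right part of IV contained the longest stretch without peaks. From 14 to 17 Mb the coverage was 5.51% in replicate 1 and 4.51% in replicate 2, against 10.8% and 10.3% on the rest of IV, a ratio of 0.475 ± 0.0518 (SD, n = 2). The interval was drawn around the longest peak-free stretch after the values were seen, so its low ratio was in part set by that choice. Without the stretch, the coverage was 7.30% in replicate 1 and 5.97% in replicate 2, and the ratio 0.628 ± 0.0686 (SD, n = 2). The interval held 43 peaks in replicate 1 and 39 in replicate 2. They were not narrower than elsewhere in replicate 1, with a median of 2357 bp against 2340 bp on the rest of IV, and were narrower in replicate 2, with 2402 bp against 2735 bp. Domains of 5000 bp or more made up 27.9% of them in replicate 1 and 20.5% in replicate 2, against 15.6% and 20.0% on the rest of IV.

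Within it both replicates lacked peaks from 15648395 to 16381155, a stretch of 733 kb or 4.19% of the chromosome. The peak at its left edge spanned 15646128 to 15648376 in replicate 1 and 15645993 to 15648394 in replicate 2, so the replicate ends lay 18 bp apart. These left-edge peaks were of middle rank, with a score percentile of 43.8 in replicate 1 and 47.4 in replicate 2, where 100 stands for the highest authors' score in a library's nuclear list. The right-edge peak began at 16381755 in replicate 1 and at 16381156 in replicate 2, 599 bp apart, and ranked low, at percentiles of 7.09 and 8.59. In the 250 kb beyond the left edge coverage was 7.10% in replicate 1 and 5.56% in replicate 2, and beyond the right edge it was 7.20% and 4.36%.

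The series-wide list placed 5 peaks inside this stretch, none longer than 272 bp. Together they covered 1031 bp, or 0.141% of the stretch, against 8.79% of the whole of IV in the same list. Of the 5, 4 lay in a group between 248 and 376 kb from the left edge. The first spanned 15895916 to 15896187 with a score percentile of 18.5 in the series-wide list, and the second 15931227 to 15931430 with 9.30. The third, from 15984274 to 15984454, ranked highest at 56.7, and the fourth, from 16024200 to 16024421, reached 42.4. The fifth spanned 16360087 to 16360238, 20.9 kb from the right edge, with a percentile of 5.08. So 4 of the 5 ranked in the lower 50% of their list. Peaks in the stretch are by definition outside both replicate lists. All 833 such series-wide peaks of IV had a median percentile of 33.7 and a median width of 227 bp. Short, weak peaks were thus not particular to the stretch. From 16024422 to 16360086, 336 kb held no peak in any list. Input reads in the stretch were not analysed here.

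**Figure D3:**
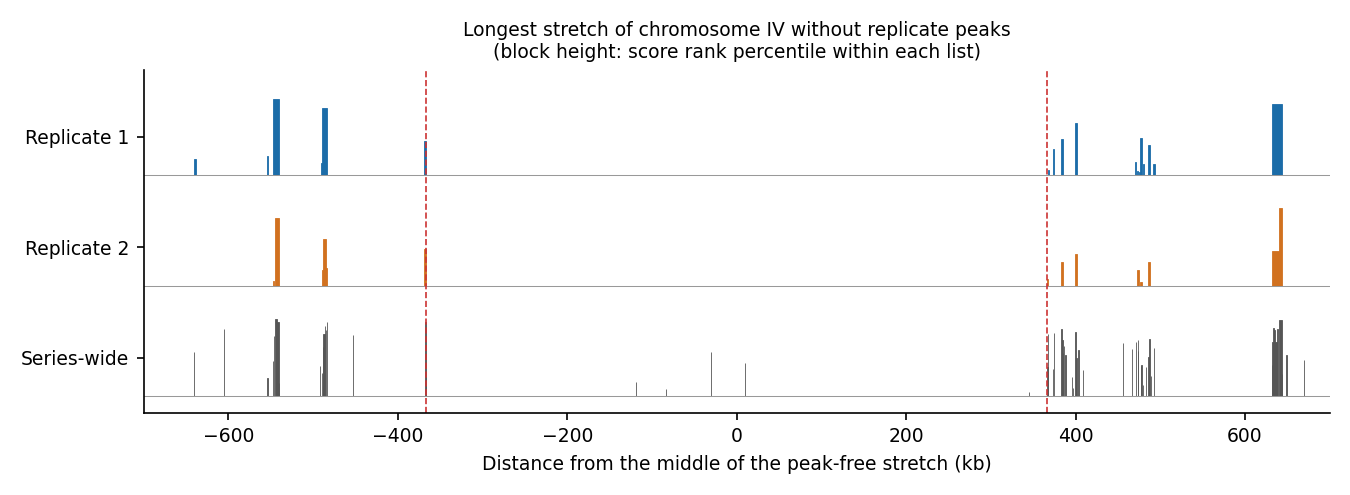
Peaks of replicate 1, replicate 2 and the series-wide list within 700 kb of the middle of the longest peak-free stretch of chromosome IV (kb). Block width is peak width and block height is the score rank percentile within each list, dashed lines mark the edges of the 733 kb stretch, and 5 thin series-wide peaks stand inside it.

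No other gap on IV came near this length. It was 3.09 times the next longest, which ran from 13539513 to 13776355 (237 kb) and held 0 series-wide peaks. The third spanned 3809590 to 4040597 in the left arm (231 kb), the fourth 14115625 to 14326518 (211 kb) and the fifth 12834869 to 13029209 (194 kb). The gap in the left arm was bounded by peaks of 7678 bp on the left and 10537 bp on the right in replicate 1, and by peaks of 5242 bp and 4041 bp in replicate 2. The second was bounded on its left by the narrow, low-ranked peaks of 1553 bp in replicate 1 and 1333 bp in replicate 2. Stretches of at least 100 kb without a peak in both replicates numbered 34, of which 12 lay in the centre, 7 in the left arm and 15 in the right arm. The 15 in the right arm added up to 2.78 Mb of its 4.37 Mb. On the other chromosomes the longest shared stretch was 784 kb on V, 409 kb on X, 280 kb on I, 252 kb on II and 134 kb on III.

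Peaks were packed most closely in different places in the replicates. In replicate 1 the 3 shortest runs of 10 successive peaks lay in the arms. They spanned 13499271 to 13538602 (39.3 kb), 1952035 to 1999772 (47.7 kb) and 805424 to 855042 (49.6 kb). Replicate 2 had 5, 5 and 2 peaks in these runs. The first of them ends at the left border of the 237 kb gap. In replicate 2 the 3 shortest runs lay in the centre, at 10096502 to 10179213 (82.7 kb), 11107015 to 11203456 (96.4 kb) and 11310280 to 11407901 (97.6 kb). Replicate 1 had 6, 8 and 8 peaks there. The runs had median score percentiles of 26.9 to 39.3 in replicate 1 and 29.4 to 49.5 in replicate 2. The medians of all IV peaks were higher, at 49.6 in replicate 1 and 54.1 in replicate 2. Against its own zone, the replicate 1 run from 1952035 was not low, at 39.3 against 35.2 for the left arm. The other runs lay below their zone medians, which were 35.2 and 48.0 for the left and right arms in replicate 1. For the centre in replicate 2 the median was 57.0. From end to end of IV, gaps between neighbours had medians of 11036 bp (replicate 1) and 15721 bp (replicate 2), and 28.9% and 25.6% of neighbours lay within 2000 bp.

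Wide peaks were also the high-scoring and the shared ones. Width and score had a Spearman's rho of 0.81 over the 548 peaks of replicate 1 and 0.80 over the 465 peaks of replicate 2, and both values come from the same peak call. Domains of 5000 bp or more numbered 91 in replicate 1 (16.6%, against 16.9% of all nuclear peaks) and 93 in replicate 2 (20.0%, against 18.9%). They held 38.6% of the covered bases in replicate 1 and 42.7% in replicate 2. Their median score percentile was 86.6 in both lists. Peaks under 1500 bp had medians of 15.6 and 14.9. The 10 peaks of 10000 bp or more in replicate 1 and the 11 in replicate 2 ranked below the domains of 5000 bp or more as a whole, with medians of 77.1 and 75.1.

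The highest score ranks made up a larger share of the arm peaks than of the centre peaks. Of the centre peaks, 7.78% in replicate 1 and 9.61% in replicate 2 were above a percentile of 90 in their nuclear list, against 14.7% in both replicates for the arms. In number these were 21 in the centre against 41 in the arms in replicate 1, but 27 against 27 in replicate 2. On the other autosomes the shares were 10.1% and 11.1% in the centres, against 10.5% and 10.5% in the arms. The share of weak peaks was higher in the arms than in the centre too: 18.5% of centre peaks were at or below a percentile of 25 in replicate 1 and 21.7% in replicate 2, against 35.6% and 25.5% of arm peaks. In number the weak peaks were 50 in the centre against 99 in the arms in replicate 1, but 61 against 47 in replicate 2. On the other autosomes the weak shares were 18.8% and 21.6% in the centres, against 27.5% and 27.0% in the arms, so a higher weak share in the arms was seen there too. Among pairs shared by the replicates, 34 had a percentile above 90 in both, 12 of 216 in the centre (5.56%), 12 of 90 in the left arm (13.3%) and 10 of 55 in the right arm (18.2%). These shares were not tested.

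The 10 shared peaks with the highest mean percentile included 6 in the left arm, 2 in the centre and 2 in the right arm. The first of them, in the left arm, spanned 652153 to 658636 in replicate 1 and 652194 to 656562 in replicate 2, with percentiles of 98.7 and 99.7. The second spanned 17083815 to 17090170 in replicate 1 and 17083715 to 17089521 in replicate 2, with percentiles of 99.8 and 98.1, close to the right end of the chromosome. Another 7 had a score of exactly 3100 in both replicates and cannot be ordered. In replicate 1 these began at 792797, 1007564, 1051361, 2492999, 4357011, 4387752 and 4746156. The first peak scored 3015.8 in replicate 1, below these 7, and 3100.26 in replicate 2. Its place above them depends on the average rank that tied scores share. The tenth spanned 14765604 to 14774559 in replicate 1, with percentiles of 97.2 and 99.7, inside the sparse 14 to 17 Mb interval. Its place among the 10 depends on that average rank too, and so does the count by zone. The next pair, in the centre from 7943966 in replicate 1, had percentiles of 98.5 and 98.1. Its replicate 2 score was one of those tied at 3100. Widths of the 10 ran from 3718 to 9416 bp over both lists, and between 72.2% and 88.8% of the replicate 1 bases of each lay inside series-wide peaks.

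**Figure D4:**
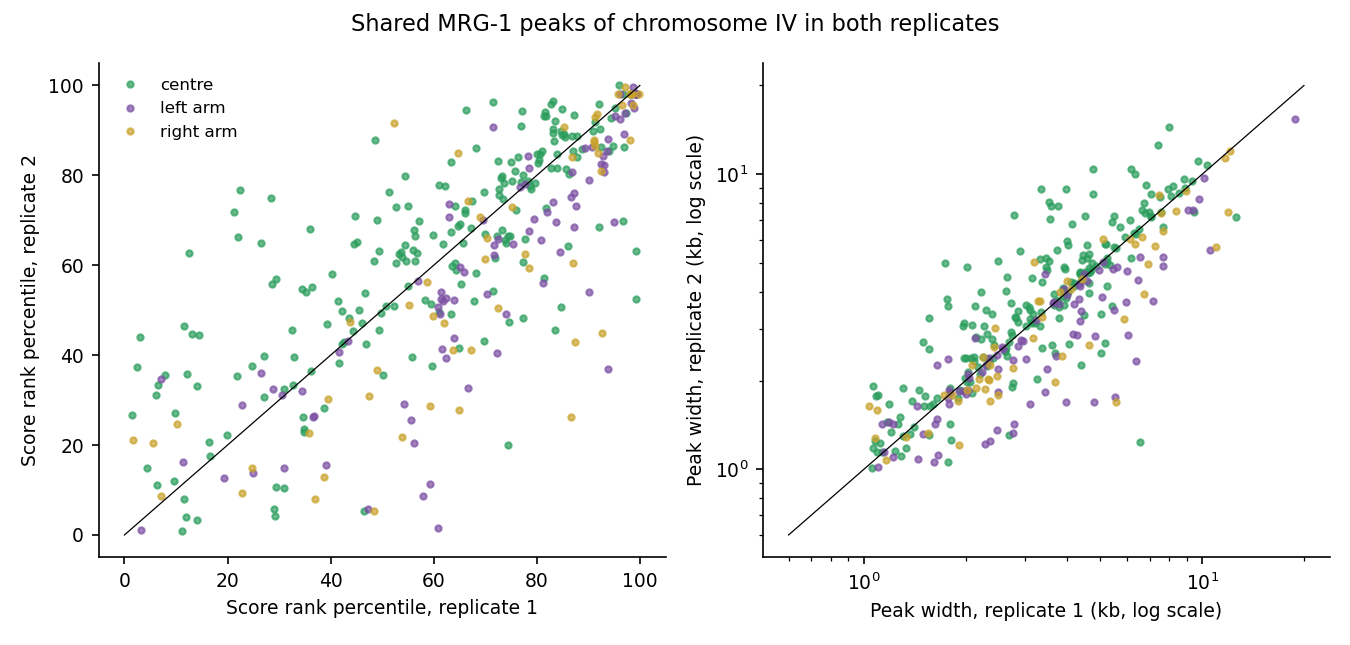
The 361 best-matching peak pairs of chromosome IV, with replicate 1 on the x axis and replicate 2 on the y axis, as score rank percentile (left panel) and as peak width in kb on log axes (right panel), coloured by zone, with the line of equality. Points of the centre lie mostly above the line for width and points of both arms mostly below it.

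Pairs were formed from peaks that were each other's best match by shared bases, and 361 were found. Between the members of a pair the rank correlation (Spearman) was 0.785 for scores and 0.825 for widths, and log scores gave a linear correlation (Pearson) of 0.775. Pairs share the library they come from, so these too are descriptions. The median difference was 143 bp at the start and 146 bp at the end, and both edges lay within 250 bp in 144 pairs (39.9%). The median difference in score percentile was 8.99 points. One replicate sometimes split what the other called whole: 28 replicate 1 peaks met 2 or 3 replicate 2 peaks, and 25 replicate 2 peaks met 2 or 3 replicate 1 peaks.

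The widest shared domain, in the left arm, spanned 379686 to 398484 in replicate 1 (18799 bp) and 382085 to 397440 in replicate 2 (15356 bp). Inside it the series-wide list had 1 long peak of 15197 bp, the widest of that list on any chromosome and 6 others, and 92.3% of the replicate 1 domain was inside series-wide peaks. The next, in the right arm, spanned 14787537 to 14799624 in replicate 1 and 14787846 to 14799861 in replicate 2. It was broken into 10 series-wide peaks, the longest of 5111 bp. The third lay at 15036244 to 15047962 in replicate 1 and held 2 series-wide peaks, 1 of them 10208 bp long, with score percentiles of 98.3 in replicate 1 and 98.1 in replicate 2. The fourth was 8003 bp in replicate 1, from 5366536 to 5374538, and 14444 bp in replicate 2, from 5361034 to 5375477. Its percentiles were 99.3 and 63.2, the largest rank difference among these 5 domains. Over all 361 pairs larger ones occurred, such as 86.6 against 26.3 for the pair that begins at 16849807 in replicate 1. The fifth spanned 13091497 to 13101843 in replicate 1, with percentiles of 82.8 and 96.0.

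Over all peaks of IV, the wider the replicate peak, the more series-wide peaks it met. Peaks under 1500 bp met a median of 1 in both replicates, and domains of 5000 bp or more met a median of 5 in both. Of these domains 90 of 91 in replicate 1 and 87 of 93 in replicate 2 met at least 2. Series-wide peaks filled a median of 80.3% of the bases of each such domain in replicate 1 and 77.2% in replicate 2, against 42.0% and 50.0% in peaks under 1500 bp. A wide peak has more room for others, so the rise in number is partly set by width.

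**Figure D5:**
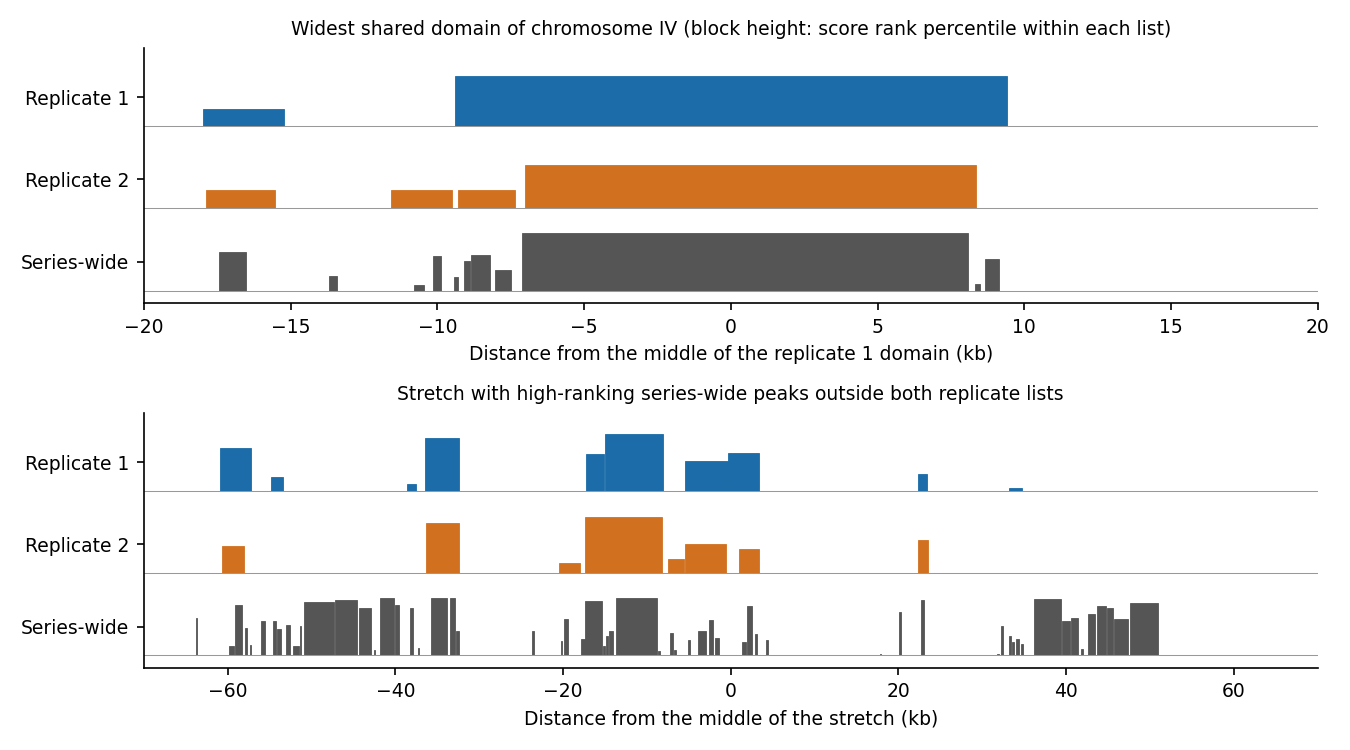
Peaks of the 3 lists around the widest shared domain (upper panel, kb from its middle) and in the stretch of chromosome IV with high-ranking series-wide peaks outside both replicate lists (lower panel, kb from its middle). Block height is the score rank percentile within each list. A single series-wide peak of 15197 bp fills most of the upper domain. The lower panel extends beyond the 102 kb from 4710214 to 4812004, in which 22 of 49 series-wide peaks overlap no replicate peak.

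Replicate 2 overlapped 385 of the 548 replicate 1 peaks by at least 1 bp, which is 70.3% (exact 95% interval 66.2 to 74.1), against 73.4% of all nuclear replicate 1 peaks. Replicate 1 overlapped 389 of the 465 replicate 2 peaks, which is 83.7% (80.0 to 86.9), against 79.8% of all nuclear replicate 2 peaks. Intervals cover counting error only. The lists had 1.33 Mb in common, 76.9% of the replicate 1 bases and 81.6% of the replicate 2 bases. Sharing followed width: 32.4% of replicate 1 peaks under 1500 bp were shared, against 97.8% of those of 5000 bp or more. In replicate 2 the shares were 61.1% and 97.8%. A wider peak meets the rule more easily. By zone, 238 of 270 centre peaks of replicate 1 were shared, 92 of 186 in the left arm and 55 of 92 in the right arm. In replicate 2 these were 224 of 281 in the centre, 102 of 116 in the left arm and 63 of 68 in the right arm. The zone with the lowest shared share was therefore the left arm in replicate 1 and the centre in replicate 2. The arms held 278 peaks in replicate 1 and 184 in replicate 2, so fewer replicate 2 peaks could match there. Shares by zone are not given here for the other autosomes, so this order cannot be called particular to IV.

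Peaks found in 1 replicate only were mostly narrow and weak. The 163 in replicate 1 had a median width of 1433 bp and a median score percentile of 20.1, and the 76 in replicate 2 had 1589 bp and 20.0. Of the 163, 148 overlapped a series-wide peak (90.8%), against 94.8% of all nuclear peaks found in replicate 1 only. Of the 76 it was 75 (98.7%), against 98.8% of all nuclear peaks found in replicate 2 only. A few ranked high. In replicate 2 the strongest spanned 3047653 to 3051440 at a percentile of 94.1, 3.14 kb from the nearest replicate 1 peak, and 79.6% of it lay inside a series-wide peak that ranked at 98.0 in its list. The next spanned 11145835 to 11152124 at a percentile of 93.1, with the nearest replicate 1 peak 13.9 kb away. In replicate 1 the strongest spanned 12729998 to 12732977 at a percentile of 77.0, and the next 14111491 to 14115624 at 70.2, with replicate 2 peaks 3.24 kb and 26.8 kb away.

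In the series-wide list, 833 of the 2461 peaks on IV overlapped neither replicate (33.8%, against 31.5% of all nuclear series-wide peaks), and they held 16.1% of its bases on IV. By zone they were 399 of 1371 peaks in the centre (29.1%), 310 of 725 in the left arm (42.8%) and 124 of 365 in the right arm (34.0%). Their median width was 227 bp and their median score percentile 33.7. Of the 833, 9 ranked above 90 (1.08%, against 34 of 4564 over all chromosomes, 0.745%), and 5 of these 9 lay in 102 kb of the central zone, from 4710214 to 4812004. This group was chosen after the values were seen. The highest spanned 4719224 to 4720929, with a percentile of 99.9. Others were at 4713877 to 4716543 (96.9) and at 4797233 to 4800494 (97.4). The replicates had 8 peaks each in those 102 kb, among them a shared one with a score of 3100 in both, and 22 of the 49 series-wide peaks there overlapped none. This is also where the most covered window of IV in the series-wide list lay, from 4.7 to 4.8 Mb, at 36.7%, next to the window from 4.8 to 4.9 Mb, which held no replicate peak and was 10.8% covered in the series-wide list. The way the series-wide list was made is not known here, and why these peaks are absent from the replicate lists was not tested.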

How the data were processed

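MRG-1 ChIP-seq peak lists of 2 libraries and 1 series-wide list were used as deposited. Coordinates are WormBase WS220, per the file headers. Peaks were called with MACS in the replicates and with MACS v2 in the series-wide list, per the deposited source column. BWA is listed per the submitters' processing notes, beside the build ce10. Caller settings, the control used and how the series-wide list combines the libraries: not given in the sources used here. Each peak has 1 measured value, the authors' score, whose scale the headers leave undefined. No replicate score is below 50. The score served only to rank peaks within a list.

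The members, zones and region rules were chosen with earlier results of these data known. Named regions followed a rule: the 10 highest-ranked and 5 widest shared peaks, 10 most covered windows, 5 longest gaps, 3 densest runs per replicate and 5 strongest 1-replicate peaks, of which the first ones are printed. Centre means the middle 50% of the span, which ends at the last peak in any list, and arms the outer 25% on either side. A peak belongs to the zone of its midpoint. Percentiles are average ranks within the nuclear list. An exact two-sided permutation of labels within replicates was added after the values were seen, for 3 coverage differences. With 2 replicates its smallest p is 0.5, also after adjustment over the 3, and all other comparisons are descriptions. The procedures were tested on simulated data. RefSeq (WBcel235) gave numbers of genes only. Read depth is unknown. Tools were matplotlib 3.10.9, scipy 1.17.1, pandas 2.3.3 and numpy 2.4.6 under Python 3.11.15. Alternatives tried were other zone limits, window sizes, overlap rules, score cuts, the series-wide list and each replicate alone.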

Additional observations from a re-analysis of the deposited data

How the results depend on the processing

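Of 47 alternatives for 11 results, 23 stayed within the SD of the replicates, the counting interval of a share or, for a count, 1.5 times, and 24 moved further. For results that are means of the 2 replicates, leaving out either replicate always stays within the SD. Those alternatives are therefore among the 23 by construction. No direction reversed among the ratios, the only results where a reversal could be recorded. Peaks per Mb entered only as the replicate mean, where the centre-to-arm ratio was 1.25. By replicate it was 0.971 in replicate 1 and 1.53 in replicate 2, on opposite sides of 1. The spread is wide for the centre-to-arm ratio of coverage, where the replicates gave 1.16 and 1.93, so its 7 alternatives could hardly leave it. Leaving out either replicate gave 9.31% and 9.88% for coverage, 1.42 and 1.58 for the left-to-right ratio, 2341 and 2693 bp for width, 49.6 and 54.1 for the score percentile, 732.8 and 733.4 kb for the longest stretch, 5 and 6 series-wide peaks in it, and 10.9% and 13.1% of windows without a peak. With the 50% of peaks with the highest scores coverage was 6.93%, the shared shares 83.8% and 89.5% and the median width 3995 bp. The longest stretch was then 883 kb and the empty windows 18.3%. That stretch held 10 peaks of the top-scoring 50% of the series-wide list. The main count of 5 used the whole series-wide list, so the 2 counts are not alike. With the series-wide list coverage was 8.79%, the median width 328 bp, the longest stretch 336 kb and the empty windows 4.57%. The left-to-right ratio was 1.27 with 3 equal zones, 1.38 with boundaries at 4 and 13 Mb and 1.86 in peaks per Mb. Shared shares were 60.8% and 71.6% with 50% of each peak shared and 37.96% and 44.7% with midpoints within 250 bp. The ratio of 14 to 17 Mb to the rest of IV, an alternative chosen after seeing the data, was 0.628 without the longest stretch, and 0.438 and 0.511 with either replicate left out. Empty windows were 27.7% at 50 kb and 2.27% at 200 kb. Fewer peaks or smaller windows leave more windows empty by construction. Fewer peaks also cannot raise coverage or shorten the longest stretch, and a stricter overlap rule cannot raise a shared share. For the other moves the cause was not tested. Depth is unknown, and with 2 replicates an exact permutation test cannot give a p below 0.5. No paired analysis was possible because no values of the inputs, which carry the same replicate numbers, were analysed.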

Other observations

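The left end of IV differed between the lists. Replicate 1 had a peak from 1 to 634, at a score percentile of 9.06, where replicate 2 and the series-wide list had none. The next replicate 1 peak, from 122947 to 128928, was matched by the first replicate 2 peak, from 123479 to 128168, with percentiles of 93.9 and 88.1. The series-wide list began at 51292. At the right end the last replicate peaks spanned 17457987 to 17461988 in replicate 1 and 17457667 to 17462014 in replicate 2, and only the series-wide list had a later peak, from 17493472 to 17493830.

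The widest peaks of 1 replicate only, chosen after the values were seen, were shorter than the widest shared domain of their own list, at 18799 bp in replicate 1 and 15356 bp in replicate 2. In replicate 1 the peak spanned 13776356 to 13791591 (15236 bp) at the right border of the 237 kb gap, with a score percentile of 25.7. Series-wide peaks filled 93.2% of it, and 1 of them ranked at 98.9. In replicate 2 the peak spanned 10362837 to 10377067 (14231 bp) with a percentile of 71.5, and 73.9% of it was inside series-wide peaks. It lay in the window from 10.3 to 10.4 Mb, among those where the replicates differed most.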
